A study of Mus musculus with 9 samples.

Results

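Histone lysine methyltransferases add methyl groups to lysines of the histone tails, and lysine demethylases remove them. Genes of these enzymes were taken from the deposited expression tables by name: symbols that begin with Kmt, Kdm, Setd, Smyd, Ezh, Ehmt, Nsd or Suv39, plus Eed and Suz12. Kdm5c, Kdm5d, Kdm6a and names ending in -ps were left out. The rule took 52 of 55286 genes. Of these, 50 are counted here as enzyme genes. They include Eed and Suz12, which are core subunits of a methyltransferase complex and not methyltransferases themselves. The other 2 share only letters: Nsdhl, an enzyme of sterol synthesis, and Kdm6bos, a transcript opposite Kdm6b. Of the 50 enzyme genes, 48 passed the low-count filter. Kdm4d and Kdm4dl did not, with 0 to 5 counts in each library. Kdm4dl is annotated as an unprocessed pseudogene and was counted among the 50 by its name.

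RNA-seq was available for 9 libraries of mouse lung, 3 in each of 3 groups. The EPZ5676 group was wild-type lung of embryonic day E11.5 kept as explants for 72 h with EPZ5676, an inhibitor of DOT1L, the enzyme that methylates H3K79 and has no SET domain. The control group was wild-type E11.5 lung kept as explants for 72 h without it, and the third group was E11.5 lung that was not cultured. The dose, what the control medium held, and the strain are not given in the labels. The labels do not say that libraries came from separate embryos or cultures. Xist, a transcript of the inactive X chromosome, was high in some libraries of each explant group and near 0 in others (values are given with Suv39h1). The libraries of an explant group were therefore not all repeats of the same tissue. For explant libraries with similar Xist, and for E11.5 lung, this cannot be told. P-values reflect how far these libraries spread, and part of that spread may be technical.

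Libraries held 6509450 to 9861370 counts, with replicate 1 of both explant groups the deepest, and the biological coefficient of variation was 18.8% in EPZ5676 explants, 24.5% in control explants and 10.9% in E11.5 lung. The lung marker Nkx2-1 had 84.0 to 96.6 TPM (deposited transcript abundance, scaled by length and depth) in EPZ5676 explants, 71.7 to 78.2 TPM in control explants and 30.1 to 38.7 TPM in E11.5 lung. Explants also differed from E11.5 lung in other cell type markers. All 10 epithelial and all 10 macrophage genes were called higher in control explants than in E11.5 lung by edgeR, while all 10 endothelial and 9 of 10 red cell genes were called lower, and no listed marker was at 0 in every library. Whole lung was sequenced, so fewer cells of a type and less RNA per cell cannot be told apart.

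Methylation of H3K4 by the KMT2 and SETD1 enzymes is known at active promoters and enhancers, whereas H3K27 methylation by the Polycomb complex PRC2 and H3K9 methylation by SUV39H, SETDB and the G9a/GLP pair are known at silent genes. H3K36 methylation by NSD and SETD2 enzymes is known over transcribed genes, and H4K20 methylation by KMT5 enzymes is tied to chromatin compaction and replication. EZH2 is known to be needed in the embryonic lung, where its loss disturbs epithelial differentiation.

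The starts of 4 genes are shown for the results on PRC2 and on H3K9: Suv39h2 and Ezh2, which were lower in explants than in E11.5 lung, and Ezh1 and Suz12, a paralog and a partner subunit of Ezh2 that were not called. Windows run from 250 bases before to 50 bases after the RefSeq start in GRCm38.p6, 5′ to 3′ on the gene's strand. Capitals mark a match to TTTGGCGC or TTTCCCGC, forms of the site bound by E2F factors of the G1/S transition. Positions are chr6:47594981-47595280 on the minus strand for Ezh2, chr11:101226414-101226713 on the minus strand for Ezh1, chr11:79992856-79993155 on the plus strand for Suz12 and chr2:3474937-3475236 on the minus strand for Suv39h2.
Ezh2: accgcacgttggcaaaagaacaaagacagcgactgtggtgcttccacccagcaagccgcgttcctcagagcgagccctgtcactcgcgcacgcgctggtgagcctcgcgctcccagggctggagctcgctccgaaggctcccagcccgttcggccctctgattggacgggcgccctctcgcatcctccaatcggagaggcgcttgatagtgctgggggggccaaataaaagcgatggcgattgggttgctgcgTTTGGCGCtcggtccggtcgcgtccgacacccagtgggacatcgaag
Ezh1: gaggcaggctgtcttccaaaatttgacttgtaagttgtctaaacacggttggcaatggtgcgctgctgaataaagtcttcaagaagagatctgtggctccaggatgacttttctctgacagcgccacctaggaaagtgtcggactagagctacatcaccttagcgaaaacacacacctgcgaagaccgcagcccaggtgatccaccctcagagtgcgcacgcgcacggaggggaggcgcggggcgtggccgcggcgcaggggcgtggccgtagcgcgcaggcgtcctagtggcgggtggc
Suz12: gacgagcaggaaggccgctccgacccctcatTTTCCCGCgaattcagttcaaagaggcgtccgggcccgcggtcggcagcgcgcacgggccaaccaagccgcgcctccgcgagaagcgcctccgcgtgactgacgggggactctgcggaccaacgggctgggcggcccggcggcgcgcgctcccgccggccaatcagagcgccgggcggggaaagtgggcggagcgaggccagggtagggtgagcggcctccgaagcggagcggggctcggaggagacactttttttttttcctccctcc
Suv39h2: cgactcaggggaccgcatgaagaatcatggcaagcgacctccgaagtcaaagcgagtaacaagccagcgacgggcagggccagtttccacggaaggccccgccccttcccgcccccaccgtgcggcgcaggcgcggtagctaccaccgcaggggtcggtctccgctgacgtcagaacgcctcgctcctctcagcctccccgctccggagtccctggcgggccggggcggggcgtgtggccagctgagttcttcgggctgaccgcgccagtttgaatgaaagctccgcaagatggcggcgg

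Both strands were searched, and RefSeq windows were held for 37 of the 50 enzyme genes. A match was present in 3 of these (8.11%), Ezh2, Suz12 and Kmt5c, each with 1 match, against 3.28% of 10937 tested genes with a window and 1.8% of 27025 genes of the table. Among the 10 genes with a window that were lower in control explants than in E11.5 lung, only Ezh2 held a match. Enzyme windows had a median of 28 CpG dinucleotides, against 20 over windows of all tested genes. A match is a description of letters in these windows and not a bound site.

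In E11.5 lung, levels of the enzymes spanned a wide range. Ezh2, the main catalytic subunit of PRC2, had the highest level at 284 ± 18.9 TPM (SD, n = 3) and stood at the 96.9 percentile of tested genes. Kdm1a (LSD1), an H3K4 demethylase, followed at 132 ± 13.4 TPM, then the H3K36 methyltransferase Nsd2 at 114 ± 3.14 TPM and Setd5 at 104 ± 2.99 TPM. Nsd2 and Setd5 did not overlap in their 3 libraries (111 to 117 TPM for Nsd2 and 102 to 107 TPM for Setd5), whereas those of Kdm1a and Nsd2 met at 117 TPM. The lowest tested enzyme was Smyd1, a muscle methyltransferase, at 1.34 ± 0.593 TPM, and Kdm4d and Kdm4dl stayed at or under 0.23 TPM.

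Expression of the enzymes was first compared between EPZ5676 and control explants, which asks whether inhibition of DOT1L shifted transcripts of the other lysine methylation enzymes. None of the 48 tested enzymes was called at an adjusted p below 0.05 (edgeR quasi-likelihood F test, Benjamini-Hochberg over 15158 genes), nor was any other gene (percent of all tested genes called: 0). The lowest adjusted p among the enzymes was 0.634. At an unadjusted p below 0.05, 2 enzymes (4.17%) were found, against 6.94% of all tested genes. DESeq2 called 83 genes, none of them an enzyme, and limma on log2 TPM called 0.

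Differences between EPZ5676 and control explants were small and went both ways. Of the 48 enzymes, 22 had a log2 fold change above 0 and 26 below, with a median of -0.01 against -0.00 over all tested genes, and the values ran from -0.32 to 0.31. The 95% interval of the difference lay within 1 log2 unit of 0 for 47 enzymes and within 1.5-fold for 43. For the other 5 (Kdm2b, Kdm8, Setd6, Smyd1 and Smyd3) it reached beyond 1.5-fold. Smyd1, with 5 to 22 counts in each explant library, had the widest interval, -0.95 to 1.45.

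The 6 enzymes with the smallest unadjusted p between explant groups did not pass the adjusted threshold. Kdm2b, an H3K36 demethylase that also brings a Polycomb complex to CpG islands, had 22.5, 17.8 and 22.0 TPM in EPZ5676 explants and 25.1, 26.6 and 18.3 TPM in control explants. The groups overlapped, and the log2 fold change was -0.32 ± 0.12 (SE; edgeR adjusted p = 0.634). Smyd2, a methyltransferase of the SMYD family with histone and other targets, had 48.2, 40.8 and 45.8 TPM in EPZ5676 explants and 60.8, 47.8 and 56.9 TPM in control explants. Only EPZ5676 replicate 1 reached the control range, and the log2 fold change was -0.26 ± 0.12 (edgeR adjusted p = 0.717).

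Kdm7a, a demethylase of H3K9 and H3K27, was at 7.25, 7.81 and 7.58 TPM in EPZ5676 explants and 7.68, 6.29 and 5.15 TPM in control explants, a log2 difference of 0.21 ± 0.10. For Kmt2c, an enhancer H3K4 methyltransferase, the values were 20.9, 17.8 and 20.9 TPM in EPZ5676 explants and 22.3, 20.6 and 19.3 TPM in control explants, a log2 difference of -0.15 ± 0.07. Both groups overlapped for these genes, with edgeR adjusted p of 0.735 for Kdm7a and 0.743 for Kmt2c. Smyd5 had 36.2, 30.3 and 32.8 TPM in EPZ5676 explants and 41.0, 33.9 and 31.4 TPM in control explants; the log2 difference was -0.16 ± 0.09 (edgeR adjusted p = 0.813). Ehmt2 (G9a), an H3K9 methyltransferase, had 94.8, 64.2 and 73.6 TPM in EPZ5676 explants and 109, 81.4 and 77.6 TPM in control explants, differing by -0.17 ± 0.11 on the log2 scale (edgeR adjusted p = 0.816). These ranges overlapped as well.

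In TPM, 1 of the 48 enzymes had explant groups that did not overlap, against 8.23% of all tested genes. That gene, Setd6, which methylates the NF-kB subunit RelA, was singled out after its values were seen. It had 17.3, 19.2 and 18.0 TPM in EPZ5676 explants and 14.0, 15.3 and 6.32 TPM in control explants. EPZ5676 explants were all above control explants, but the count-based log2 fold change was 0.31 ± 0.23 (edgeR adjusted p = 0.858).

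**Figure D1:**
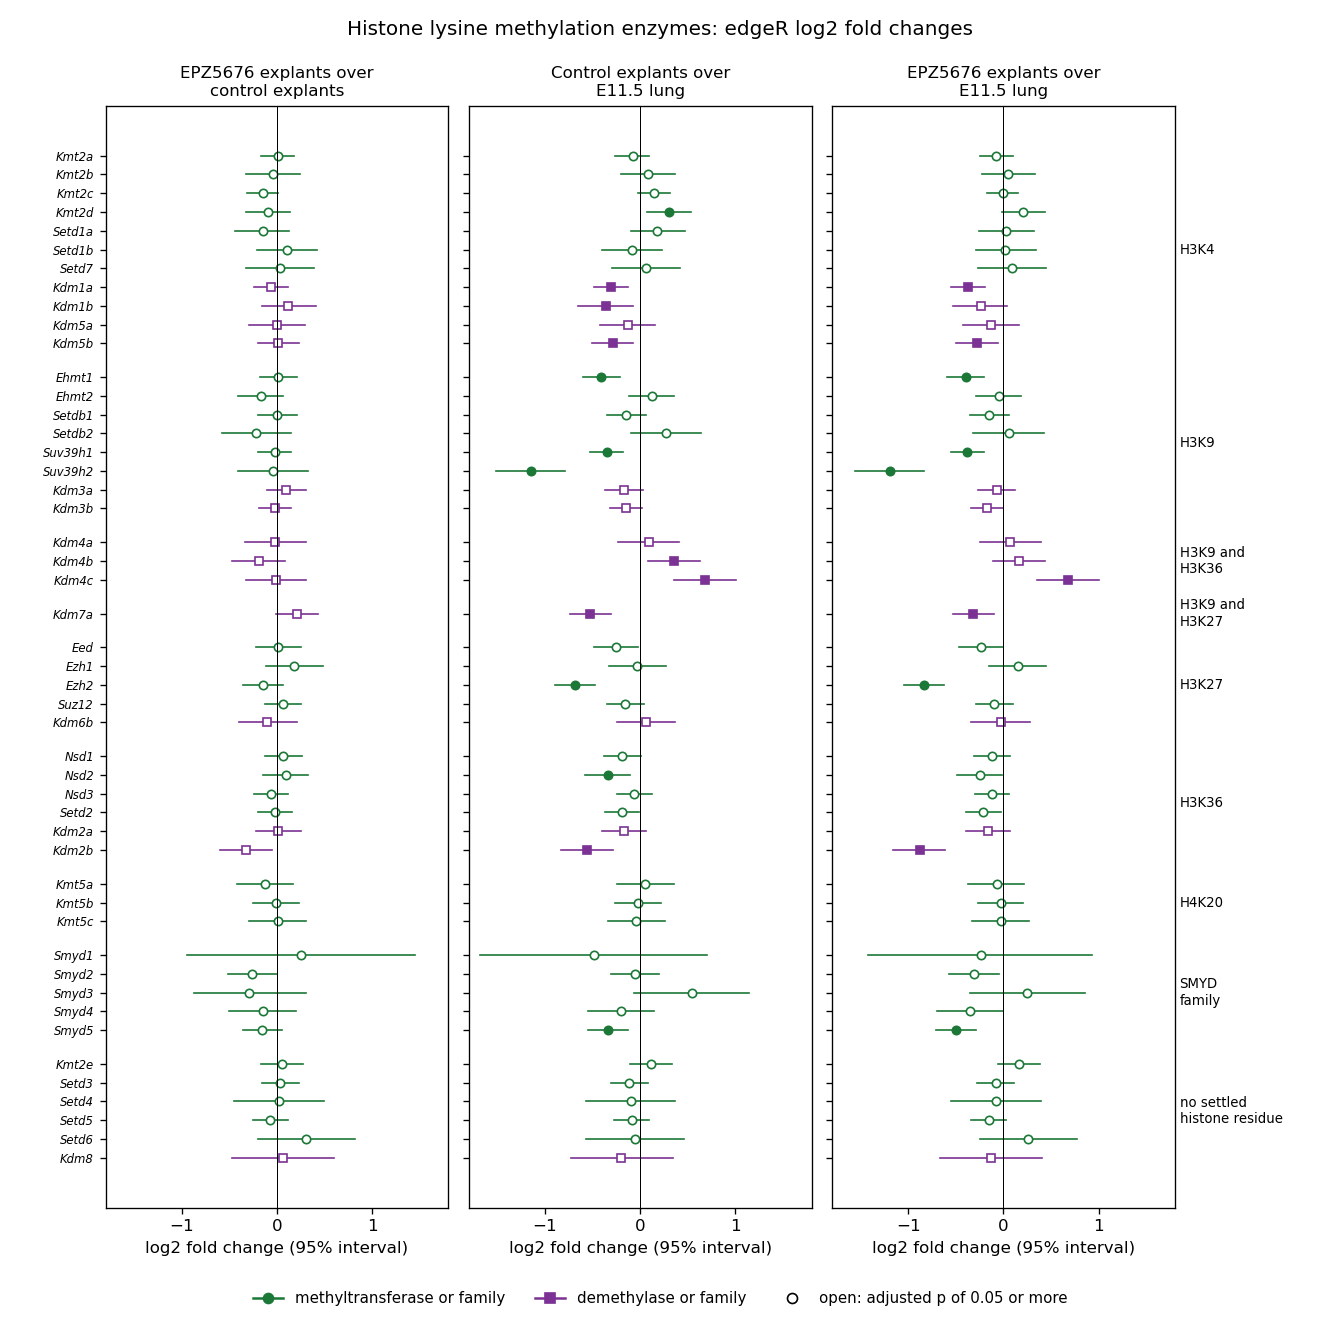
Log2 fold changes with 95% intervals for the 48 tested enzymes, by histone residue, in EPZ5676 against control explants, control explants against E11.5 lung and EPZ5676 explants against E11.5 lung; circles are methyltransferases or their families, squares demethylases, and filled symbols passed an edgeR adjusted p of 0.05. None is filled between explant groups, where values lie between -0.32 and 0.31, and Suv39h2 lies lowest in both comparisons with E11.5 lung.

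Cultured explants were then compared with E11.5 lung. The explants were 72 h past E11.5, so culture and developmental time cannot be told apart. Of 48 enzymes, 14 were called in control explants against E11.5 lung by edgeR, 3 higher and 11 lower, where 37.7% of all tested genes were called. By direction, 6.25% of the enzymes rose, against 21.1% of all tested genes, and 22.9% fell, against 16.6% of all. The TPM of 17 enzymes did not overlap between the groups, where 44.4% of all tested genes did not. In EPZ5676 explants against E11.5 lung, 10 were called, 1 higher and 9 lower, where 40% of all tested genes were called. Here 2.08% of the enzymes rose, against 22.1% of all, and 18.8% fell, against 17.9% of all, and the TPM of 22 enzymes did not overlap, where 52.2% of all tested genes did not. The median log2 fold change of the enzymes was -0.11 in both comparisons, against 0.02 over all tested genes in each. The comparisons share the E11.5 libraries, so the values of each are given side by side.

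The 14 calls rested in part on single libraries. Without E11.5 replicate 2, or without E11.5 replicate 3, 7 enzymes were called in control explants against E11.5 lung, 1 higher and 6 lower. Limma on log2(TPM + 1) called 5, all lower. With RLE or upper-quartile scaling the split was 1 higher and 11 lower. The enzymes called whichever library was left out were Suv39h2, Ezh2, Kdm2b, Ehmt1, Suv39h1, Kdm7a and Kdm4c, 7 of the 14. Limma on log2 TPM ended the control calls of Kdm1a, Kdm1b, Kdm4b, Kdm5b, Kdm7a, Kmt2d, Nsd2, Smyd5 and Suv39h1. With log2(TPM + 1) it also ended that of Kdm4c. The control calls of Kdm1a, Kdm1b, Kdm5b and Smyd5 were also lost without the low-count filter. In EPZ5676 explants, Kdm5b and Kdm7a were lost in both ways and Suv39h1 with limma. The count in EPZ5676 explants against E11.5 lung ran from 8 to 10 when libraries were left out.

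Among the 6 methyltransferases of H3K9, 3 fell in control explants and 3 in EPZ5676 explants, and none rose. Of all tested genes 16.6% fell in control explants and 17.9% in EPZ5676 explants, and the 6 were not tested against them. Suv39h2 (ENSMUSG00000026646; chr2:3455815-3475031, minus strand, GRCm38), which trimethylates H3K9 in pericentric heterochromatin, had 19.9, 13.8 and 15.9 TPM in EPZ5676 explants, 21.7, 16.9 and 10.6 TPM in control explants and 33.6, 39.2 and 38.6 TPM in E11.5 lung. Every explant library lay below every E11.5 library. The log2 fold change was -1.15 ± 0.16 in control explants (edgeR adjusted p = 4.35e-04) and -1.19 ± 0.16 in EPZ5676 explants (edgeR adjusted p = 2.94e-04), the largest of any enzyme in each comparison. It was called under every alternative and with each library left out.

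Its paralog Suv39h1 also fell. It had 50.7, 41.9 and 47.1 TPM in EPZ5676 explants, 53.6, 48.2 and 38.8 TPM in control explants and 58.0, 64.4 and 61.0 TPM in E11.5 lung. Explants and E11.5 lung did not overlap, with log2 fold changes of -0.35 ± 0.08 in control explants (edgeR adjusted p = 0.00557) and -0.38 ± 0.08 in EPZ5676 explants (edgeR adjusted p = 0.00355). The Suv39h1 calls were lost with limma on log2 TPM. Suv39h1 lies on the X chromosome, and Xist, the transcript that coats the inactive X, differed between libraries: it was at 0.58, 210 and 0.77 TPM in EPZ5676 explants, 281, 278 and 0.25 TPM in control explants and 284, 143 and 72.5 TPM in E11.5 lung. Its part in the Suv39h1 values was not tested. The ratio of Suv39h2 to Suv39h1 was 0.394, 0.328 and 0.337 in EPZ5676 explants, 0.405, 0.350 and 0.274 in control explants and 0.579, 0.609 and 0.632 in E11.5 lung, so the ratios of explants and E11.5 lung were apart.

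Ehmt1 (GLP), the partner of G9a in dimethylation of H3K9, had 49.4, 53.0 and 48.7 TPM in EPZ5676 explants, 58.8, 49.0 and 47.4 TPM in control explants and 73.4, 80.3 and 71.2 TPM in E11.5 lung. All explant libraries were below all E11.5 libraries, with log2 fold changes of -0.41 ± 0.09 in control explants (edgeR adjusted p = 0.00464) and -0.39 ± 0.09 in EPZ5676 explants (edgeR adjusted p = 0.00505). Its partner Ehmt2 was not called, with 64.2 to 94.8 TPM in EPZ5676 explants, 77.6 to 109 TPM in control explants and 75.0 to 86.4 TPM in E11.5 lung. Ehmt2 exceeded Ehmt1 by a ratio of 1.92, 1.21 and 1.51 in EPZ5676 explants and 1.86, 1.66 and 1.64 in control explants, while the ratio was 1.18, 0.935 and 1.14 in E11.5 lung. Setdb1 and Setdb2 were not called; Setdb2 had the highest log2 fold change of the class in control explants, 0.27 ± 0.17 from counts (edgeR adjusted p = 0.227), while its mean TPM was lower in control explants (log2 ratio of means -0.25).

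**Figure D2:**
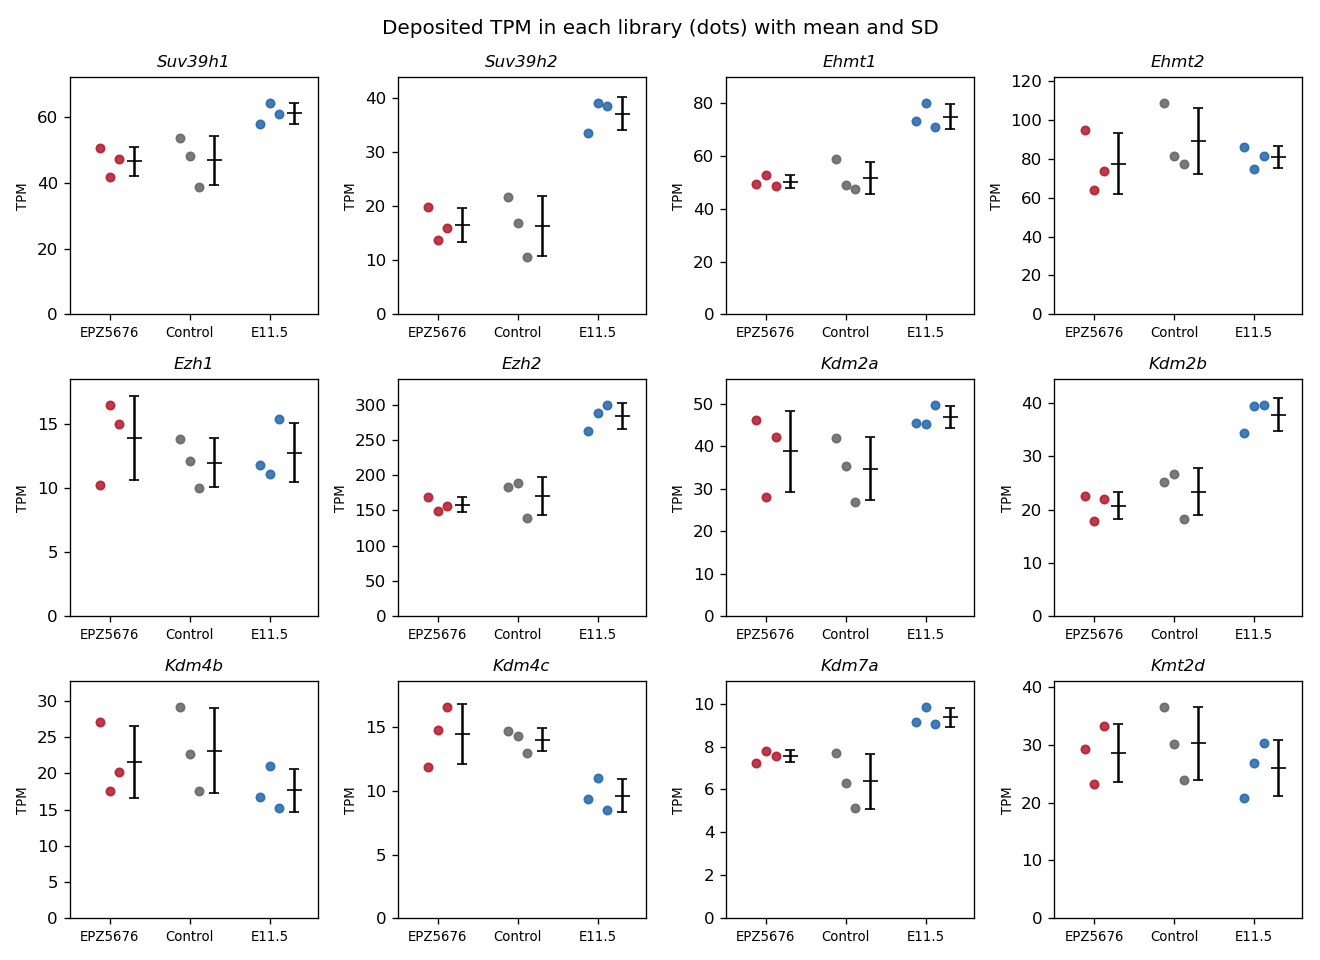
Deposited TPM of 12 enzymes in each library (dots; columns are EPZ5676 explants, control explants and E11.5 lung, 3 libraries each), with the mean and SD beside them on axes that start at 0. Suv39h2, Ezh2, Ehmt1, Kdm2b and Kdm7a lie lower in every explant library than in every E11.5 library, and Kdm4c lies higher.

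Of the 4 PRC2 genes, which methylate H3K27, 1 fell and none rose in each comparison. Among all tested genes 17.9% fell in EPZ5676 explants and 16.6% in control explants. Ezh2 (ENSMUSG00000029687; chr6:47530139-47595341, minus strand, GRCm38) had 169, 149 and 157 TPM in EPZ5676 explants, 183, 189 and 139 TPM in control explants and 263, 288 and 300 TPM in E11.5 lung. All explant libraries were below the E11.5 range, while the explant groups overlapped. Log2 fold changes were -0.68 ± 0.10 in control explants (edgeR adjusted p = 3.93e-04) and -0.83 ± 0.10 in EPZ5676 explants (edgeR adjusted p = 9.80e-05), and both were called under every alternative and with each library left out. Between explant groups Ezh2 differed by -0.15 ± 0.10, with a 95% interval of -0.36 to 0.06.

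Ezh1, the other catalytic subunit, with weaker activity, did not pass: it had 10.2, 16.5 and 15 TPM in EPZ5676 explants, 13.8, 12.1 and 10 TPM in control explants and 11.8, 11.1 and 15.4 TPM in E11.5 lung. All 3 groups overlapped. Ezh2 exceeded Ezh1 by 16.7-, 9.06- and 10.4-fold in EPZ5676 explants, 13.3-, 15.7- and 13.9-fold in control explants and 22.3-, 26.1- and 19.5-fold in E11.5 lung, a gap between explants and E11.5 lung with no overlap. Eed, the subunit that binds methylated H3K27, stood at -0.24 ± 0.11 on the log2 scale in EPZ5676 explants (edgeR adjusted p = 0.0994) and -0.25 ± 0.11 in control explants (edgeR adjusted p = 0.0872). Suz12, the scaffold subunit whose window is printed above, had -0.10 ± 0.09 in EPZ5676 explants and -0.16 ± 0.09 in control explants, neither called. Kdm6b, the H3K27 demethylase, was not called at 17.2 to 27 TPM in EPZ5676 explants, 16.6 to 30.1 TPM in control explants and 21.9 to 26.4 TPM in E11.5 lung.

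**Figure D3:**
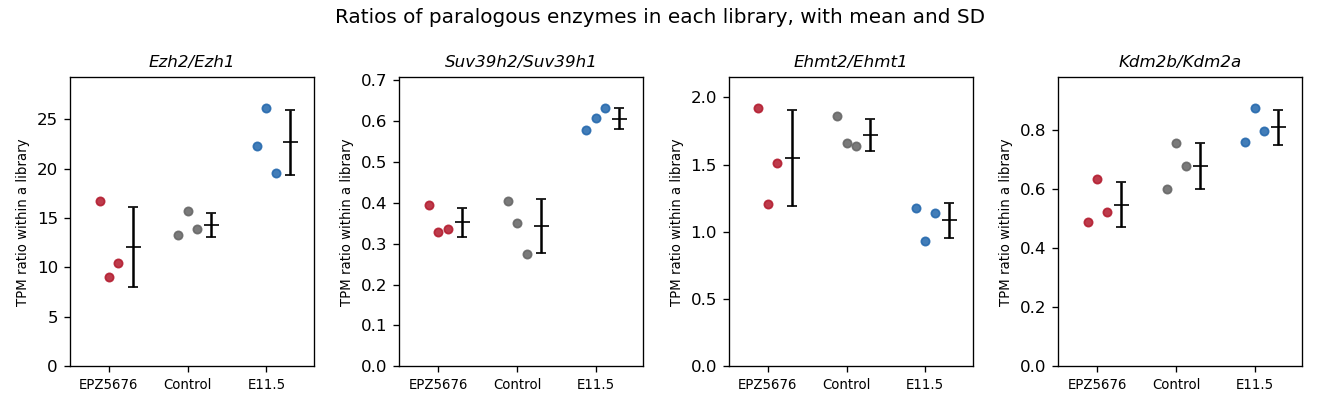
TPM ratio of 4 paralog pairs within each library (dots), with mean and SD, for EPZ5676 explants, control explants and E11.5 lung. Ezh2/Ezh1 and Suv39h2/Suv39h1 are lower in all explant libraries than in all E11.5 libraries, and Ehmt2/Ehmt1 is higher.

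Most of the H3K4 enzymes that were called were demethylases. Of 4 tested demethylases, 3 fell in control explants (Kdm1b, Kdm1a and Kdm5b) and 2 in EPZ5676 explants (Kdm1a and Kdm5b). The share of all tested genes that fell was 16.6% in control explants and 17.9% in EPZ5676 explants. Kdm1a (LSD1), which removes mono- and dimethyl marks, had 113, 87.1 and 94.0 TPM in EPZ5676 explants, 111, 102 and 89.5 TPM in control explants and 117, 143 and 134 TPM in E11.5 lung. Explants stayed below E11.5 lung in every library, by a log2 fold change of -0.37 ± 0.08 in EPZ5676 explants (edgeR adjusted p = 0.00487) and -0.31 ± 0.08 in control explants (edgeR adjusted p = 0.0132). The control call was lost without E11.5 replicate 2 or 3 (highest edgeR adjusted p = 0.0578).

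Kdm5b, which removes trimethyl marks, had 48.2, 42.1 and 50.9 TPM in EPZ5676 explants, 50.8, 41.5 and 40 TPM in control explants and 51.6, 60.7 and 58.5 TPM in E11.5 lung. The groups were apart, narrowly for E11.5 replicate 1. Log2 fold changes were -0.28 ± 0.10 in EPZ5676 explants (edgeR adjusted p = 0.0414) and -0.29 ± 0.10 in control explants (edgeR adjusted p = 0.0365), and both calls were lost without E11.5 replicate 2 or 3 or without replicate 2 or 3 of the explant group (highest edgeR adjusted p = 0.132 in EPZ5676 explants and 0.13 in control explants). Kdm1b, an LSD1 paralog known for its part in imprinting in the oocyte, had 10.5, 12.2 and 11.7 TPM in EPZ5676 explants, 11.8, 11.3 and 7.58 TPM in control explants and 15.3, 17.8 and 12.6 TPM in E11.5 lung. It fell by 0.36 on the log2 scale in control explants (SE 0.13; edgeR adjusted p = 0.0467), a call lost without any 1 of the E11.5 libraries or without control replicate 1 or 3, and was not called in EPZ5676 explants (-0.24, edgeR adjusted p = 0.162).

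Kdm5a gave different answers on the deposited scales. It had 31.5, 36.3 and 38.4 TPM in EPZ5676 explants, 30.9, 36.2 and 31.0 TPM in control explants and 41.9, 46.6 and 46.9 TPM in E11.5 lung, apart in every library and lower by 0.47 log2 units in mean TPM of control explants. From counts, the log2 fold change was -0.13 ± 0.13 (edgeR adjusted p = 0.474). For some enzymes that were not called the sign differed, as for Setd1a, at 0.18 from counts and -0.12 in mean TPM, and Kmt2b, at 0.08 from counts and -0.20 in mean TPM. Over all 48 enzymes the median log2 ratio in control explants was -0.18 in TPM and -0.11 in counts, against -0.04 in TPM and 0.02 in counts over all tested genes. Effective transcript lengths behind the TPM values were not given, and their part in these differences was not tested.

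Of 7 H3K4 methyltransferases, 1 rose in control explants, where 21.1% of all tested genes rose, and none was called in EPZ5676 explants. Kmt2d, an enhancer monomethyltransferase, had 29.3, 23.3 and 33.2 TPM in EPZ5676 explants, 36.6, 30.2 and 23.9 TPM in control explants and 20.8, 26.9 and 30.3 TPM in E11.5 lung. The TPM ranges overlapped, with log2 fold changes of 0.21 ± 0.10 in EPZ5676 explants (edgeR adjusted p = 0.132) and 0.30 ± 0.10 in control explants (edgeR adjusted p = 0.0426). The Kmt2d call was lost without any 1 of the E11.5 libraries, without control replicate 1 or 2, and under RLE or upper-quartile scaling, DESeq2 and limma. In this class log2 fold changes ran from -0.09 to 0.30 in control explants. Summed TPM of the class was 153 ± 21.8 in EPZ5676 explants, 156 ± 23.8 in control explants and 161 ± 7.53 in E11.5 lung (SD, n = 3 each), while the 4 demethylases summed to 192 ± 13.1 TPM in EPZ5676 explants, 188 ± 18.4 TPM in control explants and 249 ± 21.6 TPM in E11.5 lung.

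The KDM4 enzymes, which demethylate both H3K9 and H3K36, held most of the genes that rose. Of 3 tested members, 2 rose in control explants and 1 in EPZ5676 explants. Among all tested genes 21.1% rose in control explants and 22.1% in EPZ5676 explants. Kdm4c (chr4:74242497-74405860, plus strand, GRCm38) had 11.9, 14.8 and 16.6 TPM in EPZ5676 explants, 14.7, 14.3 and 13.0 TPM in control explants and 9.35, 11 and 8.50 TPM in E11.5 lung. Every explant library was above every E11.5 library, by 0.68 ± 0.15 on the log2 scale in EPZ5676 explants (edgeR adjusted p = 0.00424) and by 0.68 ± 0.15 in control explants (edgeR adjusted p = 0.00441), although limma on log2(TPM + 1) put the control value just past the threshold (adjusted p = 0.0505).

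Kdm4b had 27.1, 17.5 and 20.2 TPM in EPZ5676 explants, 29.2, 22.7 and 17.5 TPM in control explants and 16.8, 21.0 and 15.2 TPM in E11.5 lung, with overlap. Its log2 fold change was 0.16 ± 0.13 in EPZ5676 explants (edgeR adjusted p = 0.327) and 0.36 ± 0.12 in control explants (edgeR adjusted p = 0.0444). The control call was lost without any 1 of the E11.5 libraries, without control replicate 1 or 3, and under RLE or upper-quartile scaling, DESeq2 and limma. Kdm4a, at 40.6 to 62.4 TPM in EPZ5676 explants, 36.5 to 65.6 TPM in control explants and 46.1 to 49.1 TPM in E11.5 lung, was not called.

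Of the H3K36 enzymes, Kdm2b and Nsd2 fell. Kdm2b (chr5:122870665-122989823, minus strand, GRCm38), with the explant values given above, had 34.3, 39.5 and 39.7 TPM in E11.5 lung. All explant libraries were below these, with log2 fold changes of -0.88 ± 0.12 in EPZ5676 explants (edgeR adjusted p = 3.25e-04) and -0.56 ± 0.12 in control explants (edgeR adjusted p = 0.00496), and both held under every alternative and with each library left out. Its paralog Kdm2a was not called, with 28.1 to 46.2 TPM in EPZ5676 explants, 27 to 41.9 TPM in control explants and 45.3 to 49.8 TPM in E11.5 lung. The Kdm2b to Kdm2a ratio was 0.487, 0.632 and 0.521 in EPZ5676 explants, 0.599, 0.755 and 0.679 in control explants and 0.757, 0.873 and 0.797 in E11.5 lung.

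Nsd2, which dimethylates H3K36, had 98.1, 87.8 and 71.5 TPM in EPZ5676 explants, 86.0, 111 and 61.9 TPM in control explants and 111, 117 and 114 TPM in E11.5 lung. Control replicate 2 came close to the lowest E11.5 library, and the others lay well below. Nsd2 fell in control explants by 0.34 on the log2 scale (SE 0.11; edgeR adjusted p = 0.0275), a call lost without E11.5 replicate 2 or 3 or control replicate 3, and was not called in EPZ5676 explants (-0.25, edgeR adjusted p = 0.083). Nsd1, Nsd3 and Setd2, which adds the trimethyl mark to H3K36, were not called. From counts, all 4 methyltransferases had log2 fold changes below 0 in both comparisons. In mean TPM, Setd2 was level between control explants and E11.5 lung, at 75.7 TPM in control explants and 75.6 TPM in E11.5 lung.

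Kdm7a also fell in both comparisons, with 9.15, 9.86 and 9.06 TPM in E11.5 lung above all of its explant values. Its log2 fold change was -0.32 ± 0.10 in EPZ5676 explants (edgeR adjusted p = 0.0252) and -0.53 ± 0.10 in control explants (edgeR adjusted p = 0.00218). The EPZ5676 call was lost without any 1 of the E11.5 libraries or without EPZ5676 replicate 1 or 3, and the control call with limma on log2 TPM. The H3K9 demethylases Kdm3a and Kdm3b were not called, with log2 fold changes in EPZ5676 explants of -0.07 ± 0.09 for Kdm3a and -0.17 ± 0.08 for Kdm3b, and in control explants of -0.17 ± 0.09 for Kdm3a and -0.15 ± 0.08 for Kdm3b.

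In the SMYD family, 1 of 5 tested members fell. That is near the share of all tested genes that fell, 17.9% in EPZ5676 explants and 16.6% in control explants. Smyd5, whose histone target is not settled, had 42.5, 47.7 and 44.9 TPM in E11.5 lung, above its 6 explant values. Its log2 fold change was -0.50 ± 0.09 in EPZ5676 explants (edgeR adjusted p = 0.00202) and -0.34 ± 0.09 in control explants (edgeR adjusted p = 0.0155), the control call being lost without E11.5 replicate 2 or 3 or control replicate 2. Smyd3 had the highest value of the family in control explants, 0.54 ± 0.27 (edgeR adjusted p = 0.142). None of the 3 H4K20 methyltransferases (Kmt5a, Kmt5b and Kmt5c) was called, with log2 fold changes from counts between -0.04 and 0.05 in control explants. In TPM their median log2 ratio in control explants was lower, at -0.17. The 6 enzymes grouped here as without a settled histone residue (Kmt2e, Setd3, Setd4, Setd5, Setd6 and Kdm8) were not called either.

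Summed TPM by residue placed these values on 1 scale. The 4 PRC2 genes summed to 317, 297 and 303 TPM in EPZ5676 explants, 325, 336 and 272 TPM in control explants and 418, 462 and 476 TPM in E11.5 lung, that is 67.6% of the E11.5 mean in EPZ5676 explants and 68.8% in control explants. Ezh2 makes up most of that sum. The 2 H3K36 demethylases stood at 70.4% in EPZ5676 explants and 68.6% in control explants, the 4 H3K4 demethylases at 77.1% in EPZ5676 explants and 75.4% in control explants, and the H3K9 methyltransferases at 77.7% in EPZ5676 explants and 81.7% in control explants. The H3K36 methyltransferases stood at 82.3% in EPZ5676 explants and 84.7% in control explants. For the H4K20 methyltransferases the values were 83.5% in EPZ5676 explants and 88.8% in control explants. The H3K9 demethylases were at 89% in EPZ5676 explants and 86.1% in control explants. The H3K4 methyltransferases stood at 95.1% in EPZ5676 explants and 97.0% in control explants. The 3 KDM4 genes were at 117% in EPZ5676 explants and 118% in control explants, although their libraries overlapped: 101, 73.0 and 89.6 TPM in EPZ5676 explants, 110, 91.0 and 67.0 TPM in control explants and 75.0, 81.1 and 69.9 TPM in E11.5 lung. The calls given above came from counts, so they and these sums are on different scales. These sums describe the libraries, and no difference between residues was tested.

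**Figure D4:**
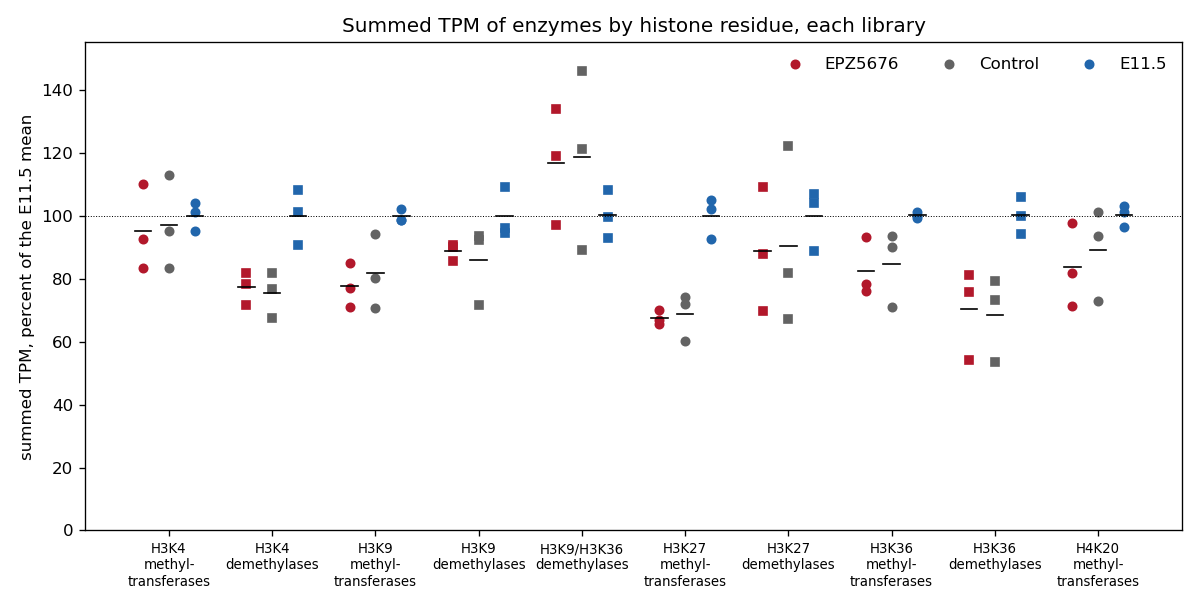
Summed TPM of the enzymes of each histone residue in each library, as a percent of the E11.5 mean (dotted line at 100), with circles for methyltransferases, squares for demethylases and a bar at each mean; groups stand in the order EPZ5676, control, E11.5. The H3K27 methyltransferase column sums the 4 PRC2 genes, which include the partner subunits Eed and Suz12. It averages 67.6% in EPZ5676 explants and 68.8% in control explants. The H3K9/H3K36 demethylases average 117% in EPZ5676 explants and 118% in control explants.

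Cofactors of these enzymes were read from the same fits, in which 22.1% of all tested genes rose and 17.9% fell in EPZ5676 explants, and 21.1% rose and 16.6% fell in control explants. Of 10 genes that read H3K9 methylation or assist its enzymes, 9 fell in EPZ5676 explants and 7 in control explants, with median log2 fold changes of -0.46 in EPZ5676 explants and -0.43 in control explants. Atf7ip2, which partners SETDB1, had 2.48, 2.12 and 1.84 TPM in EPZ5676 explants, 1.5, 2.29 and 2.84 TPM in control explants and 5.07, 5.08 and 5.77 TPM in E11.5 lung (log2 fold change -1.27 ± 0.30 in EPZ5676 and -1.19 ± 0.30 in control explants). Uhrf1, which reads H3K9 methylation at replicating DNA, fell by 0.55 in EPZ5676 explants and by 0.51 in control explants (edgeR adjusted p = 0.00579 in EPZ5676 and 0.00874 in control explants). In both genes every explant library was below every E11.5 library.

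Of 8 PRC2 accessory subunits, 2 rose and 3 fell in EPZ5676 explants, and 1 rose and 3 fell in control explants. The share that rose was near the 22.1% of all tested genes in EPZ5676 explants and below the 21.1% of all in control explants. Mtf2, which directs PRC2 to CpG-rich DNA, had 64.2, 50.9 and 54.0 TPM in EPZ5676 explants, 61.9, 59.5 and 58.9 TPM in control explants and 105, 104 and 113 TPM in E11.5 lung, log2 fold changes of -0.97 ± 0.09 in EPZ5676 and -0.89 ± 0.09 in control explants. Its relative Phf1 rose by 0.59 ± 0.19 in EPZ5676 explants and by 0.71 ± 0.19 in control explants (edgeR adjusted p = 0.0311 in EPZ5676 and 0.0135 in control explants), with 8.86 to 11.1 TPM in EPZ5676 explants, 9.54 to 11.4 TPM in control explants and 5.47 to 9.22 TPM in E11.5 lung. These relatives of the same complex moved in opposite directions.

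Of 13 COMPASS cofactors, which serve the H3K4 methyltransferases, 4 fell in EPZ5676 explants and 6 in control explants, and none rose. Psip1 fell by 0.65 in EPZ5676 explants and by 0.64 in control explants, and Ash2l by 0.50 in EPZ5676 explants and by 0.45 in control explants. Of 7 LSD1 partners, 1 rose and 2 fell in EPZ5676 explants, and 1 rose and 3 fell in control explants. Over all tested genes 22.1% rose and 17.9% fell in EPZ5676 explants, and 21.1% rose and 16.6% fell in control explants; these 7 genes were not tested against them. The corepressor Rcor3 rose by 0.45 ± 0.11 in EPZ5676 explants and by 0.65 ± 0.11 in control explants, while Rcor2 fell by 0.56 in EPZ5676 explants and by 0.53 in control explants. No gene of these 4 lists was called between EPZ5676 and control explants.

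Among 13 lysine methylation enzymes outside the name rule, 3 rose and 1 fell in EPZ5676 explants, and 4 rose and 1 fell in control explants. In EPZ5676 explants that is close to the 22.1% of all tested genes that rose; in control explants 21.1% of all rose. Hr, an H3K9 demethylase known from hair follicles, had 4.73, 4.25 and 3.76 TPM in EPZ5676 explants, 3.10, 3.17 and 2.50 TPM in control explants and 0.67, 0.32 and 1.76 TPM in E11.5 lung. From counts, its log2 fold changes against E11.5 lung were 3.14 ± 0.26 in EPZ5676 and 2.62 ± 0.26 in control explants. Mean TPM of Hr was 4.25 in EPZ5676 explants, 2.92 in control explants and 0.917 in E11.5 lung. That is a smaller change than in counts, and it starts from a low level. Prdm16, a SET-domain transcription factor, rose by 0.65 ± 0.21 in EPZ5676 explants and by 0.80 ± 0.20 in control explants. Dot1l, the target of EPZ5676, had 24.7, 17.4 and 20.3 TPM in EPZ5676 explants, 30.0, 23.2 and 18.8 TPM in control explants and 23.1, 23.1 and 21.2 TPM in E11.5 lung. The explant groups overlapped for Dot1l (log2 fold change -0.20 ± 0.10, edgeR adjusted p = 0.743), and its transcript level does not measure inhibition of the enzyme.

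Markers of proliferation moved beside the enzymes that fell. Of 25 genes of DNA replication and G1/S, 18 fell in EPZ5676 explants and 16 in control explants, with none higher. Of 18 genes of G2/M and mitosis, 12 fell in EPZ5676 explants and 14 in control explants, with none higher. Among all tested genes 17.9% fell in EPZ5676 explants and 16.6% in control explants. The mean log2 CPM (counts scaled to a common depth) of the 25 G1/S genes was 6.29 to 6.30 in EPZ5676 explants, 6.36 to 6.58 in control explants and 6.69 to 6.82 in E11.5 lung. The 10 endothelial genes averaged 2.08 to 3.06 log2 CPM in EPZ5676 explants, 1.49 to 3.67 in control explants and 5.06 to 5.11 in E11.5 lung, and the 10 red cell genes 0.23 to 2.62 in EPZ5676 explants, 0.46 to 3.66 in control explants and 7.26 to 7.43 in E11.5 lung. The 10 epithelial genes averaged 6.64 to 7.06 log2 CPM in EPZ5676 explants, 6.24 to 6.72 in control explants and 4.94 to 4.98 in E11.5 lung. Their part in the enzyme values was not tested.

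Single libraries also stood apart within groups. In log2 CPM, control replicate 3 was the lowest of its group in 28 of the 48 enzymes (58.3%, against 38.6% of all tested genes). EPZ5676 replicate 2 was lowest in 24 (50%, against 36.3%) and E11.5 replicate 1 in 27 (56.2%, against 38.5%). Control replicate 1 carried liver markers at a mean of 3.45 log2 CPM, against -0.80 and -0.83 in the other control libraries. It was also highest of its group for heart and striated muscle (2.65, against 0.58 and 1.03) and cartilage (3.37, against 2.05 and 1.41). E11.5 replicate 1 was highest of its group for liver (0.65, against -0.41 and -0.69) and heart (2.07, against 0.90 and 0.92). For neural genes, control replicate 3 was highest of its group (3.79, against 3.02 and 2.77). Without control replicate 1, 11 enzymes were called in control explants against E11.5 lung, 1 higher and 10 lower.

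Nsdhl and Kdm6bos, taken by the letters of their names, are not histone enzymes. Nsdhl had 49.2, 30.3 and 45.4 TPM in EPZ5676 explants, 51.4, 50.9 and 39.9 TPM in control explants and 28.6, 30.7 and 32.5 TPM in E11.5 lung. It rose by 0.46 ± 0.14 in EPZ5676 explants (edgeR adjusted p = 0.0252) and by 0.68 ± 0.14 in control explants (edgeR adjusted p = 0.00392), and the EPZ5676 call was lost without E11.5 replicate 1 or 2 or EPZ5676 replicate 1 or 3. Kdm6bos was below the filter at 0.32 to 1.60 TPM in EPZ5676 explants, 0.68 to 1.54 TPM in control explants and 1.46 to 3.47 TPM in E11.5 lung. Kdm6bos covers only part of the Kdm6b locus. Whether reads were counted by strand is not stated in the labels, so reads from any stretch that both genes share cannot be told apart.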

How the data were processed

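Total RNA of 9 libraries was made into RNA-seq libraries with a Vazyme kit, per the labels' protocols. RSEM, Bowtie2 and the build mm10 are named, without versions, per the submitters' processing notes. The authors deposited expected counts per gene, which are estimates divided between genes that share sequence (12.5% to 15.3% of values not whole), so paralogs are less certain. The authors also deposited TPM, which summed to 998977 to 999233 per library. All 55286 pairs of identifier and symbol matched GENCODE M21 (GRCm38), which gave gene positions.

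Expected counts were rounded, filtered with filterByExpr (minimum count 10; 15158 genes left), scaled by TMM and fitted for all 9 libraries by group in edgeR 4.0.16 under R 4.3.3, by its robust legacy quasi-likelihood F test (two-sided, 6 residual degrees of freedom). P-values were adjusted by Benjamini-Hochberg over the genes tested and called below 0.05. Standard errors come from the F statistics. A prior count of 2 was used for log2 CPM. Depths of 6509450 to 9861370 counts limit what can be seen for low genes. The fit was tested on simulated data. Alternatives were DESeq2 1.42.0, scaling by RLE or upper quartile, limma 3.58.1 on log2(TPM + 1) and log2(TPM + 0.1), no filter, a filter of 50 counts in 3 libraries, fits on the 6 libraries compared, a replicate block, and each library left out. Sums by residue and ratios of 12 paralog pairs were computed from TPM, with no test. Promoter windows were RefSeq sequences of GRCm38.p6.

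Members, classes by residue and 16 gene lists were chosen with earlier results of these data known. Genes with values in every library were, between explant groups, the 6 enzymes with the smallest unadjusted p, and against E11.5 lung up to 3 called enzymes with the largest change per residue and role. From other lists, up to 2 called genes with the largest change were named, plus Dot1l. Paralogs and class extremes are given beside these.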

Additional observations from a re-analysis of the deposited data

How the results depend on the processing

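Between EPZ5676 and control explants 0 of the 48 enzymes were called under every alternative run, while counts over all genes moved: 76 without a filter on low counts, 83 by DESeq2, 1 with the replicate block, 1 without replicate 1 of both explant groups (chosen after seeing the data), and 0 to 26 when a library was left out (26 without EPZ5676 replicate 2). In control explants against E11.5 lung, enzymes called numbered 7 to 12 when a library was left out, 5 with limma on log2(TPM + 1) and 6 with log2(TPM + 0.1), where the cause was not tested, and 10 to 14 otherwise. In EPZ5676 explants against E11.5 lung they numbered 8 to 13.

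Values near 0 between explant groups changed sign. Ehmt1 was -0.03 with limma at both pseudocounts and -0.04 to 0.05 with libraries left out. Kdm4c was 0.01 with upper-quartile scaling, 0.09 without replicate 1 of both explant groups, 0.03 with limma at both pseudocounts and -0.09 to 0.13 with libraries left out. Suv39h2 was 0.01 without replicate 1 of both explant groups, 0.05 with limma at both pseudocounts and -0.20 to 0.12 with libraries left out. With libraries left out, Kdm5b ran from -0.05 to 0.08, Nsd2 from -0.01 to 0.17 and Suv39h1 from -0.06 to 0.01. None of the enzymes called against E11.5 lung changed sign there under these alternatives; those not called were not followed in them.

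Replicate numbers did not consistently pair the explants: same-numbered EPZ5676 and control libraries correlated at 0.457, 0.079 and -0.047 in their deviations from the group means. The value for replicate 1 was the highest of any pair of libraries from different groups, and these libraries were also the deepest. What they shared was not tested. With the replicate block, 0 enzymes were called between explant groups, 14 in control explants (2 higher and 12 lower) and 11 in EPZ5676 explants against E11.5 lung. Of the calls made without it, only that of Kmt2d in control explants was lost (0.30, edgeR adjusted p = 0.0525).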
